A study of Mus musculus with 12 samples.

Results

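Mouse pluripotent cells grown in culture were compared with the pluripotent tissue of the embryo, the epiblast, to find the genes that differ between dish and embryo in the same direction whatever the line. The 8 cultured arrays came from 4 groups of 2, and the mean of the 4 group means was set against the mean of the 2 group means of 4 tissue arrays. Members were the autosomal genes whose mean in all 4 cultured groups lay on the same side of tissue. They numbered 13672 of 21201 autosomal genes (64.5%), with 4905 higher and 8767 lower in culture, out of 22180 genes measured in all. That shared direction is how the members were chosen and is not a result.

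The cultured groups were embryonic stem cells (ESC) taken from embryos of day 3.5 (E3.5), epiblast stem cells (EpiSC) from E5.75 embryos, and lines called rsEpiSC, which came from E5.75 or from E6.5 embryos. ESC were kept with LIF and the inhibitors CHIR99021 (3 µM, against GSK3) and PD0325901 (1 µM, against MEK). EpiSC were kept with FGF2 (12 ng/ml), Activin A (20 ng/ml) and serum replacement (20%), and rsEpiSC with IWR1 (2.5 µM), a Wnt inhibitor, and a factor at 20 ng/ml whose name the labels leave out. All 4 kinds of line were grown in N2B27 on mouse embryonic fibroblast feeders, so medium base and feeders are shared by all cultured arrays and cannot be told apart from culture itself. The tissue groups were epiblast of E5.75 and of E6.5. The labels give ESC and EpiSC a cross of OCT4-deltaPE-GFP with C57BL/6. From the rsEpiSC arrays on, the last number of that strain name counts up by 1 from array to array, so the strain is taken as labelled for ESC and EpiSC only. Nothing says whether replicates are separate cultures or embryos, so a p-value here reflects no more than how far these arrays differ, which may be technical.

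The epiblast is a short-lived epithelium from which the whole body arises. Lines taken from it divide without end in culture, here on feeder cells, where they meet free oxygen and rich medium. Cells answer changes in amino acid supply, growth factors, DNA damage and matrix contact through well-known programmes, among them the integrated stress response driven by ATF4, the p53 response, the sterol-sensing SREBP pathway, the lysosomal TFEB programme and the SRF and YAP responses to tension. The epiblast of the embryo is marked instead by Fgf5, Otx2 and Dnmt3b, and near gastrulation by primitive streak genes such as Eomes.

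Values are log2 signals, on which 1 unit is 2-fold, and every difference is cultured minus tissue. Replicate arrays correlated at 0.943 to 0.988, and the root mean square SD within groups was 0.24 to 0.41 in culture and 0.39 and 0.46 in tissue. The spread of signals over genes was wider in culture (interquartile range 3.07 to 3.31) than in tissue (2.23 to 2.68), and the lowest 5% of genes lay below 1.82 to 1.96 in culture and below 2.35 to 2.55 in tissue. The median difference of all genes was -0.14, and -0.03 after quantile normalization, so small changes are relative to that shift. Defining epiblast genes were measured in tissue: Fgf5, Otx2 and Dnmt3b averaged 8.85, 9.17 and 11.55 there, and Pou5f1 averaged 5.56 in culture and 5.76 in tissue, beside array medians of 4.58 to 4.70.

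Calls were frequent. With limma and an adjusted p under 0.05, 9372 of the 22180 genes differed (42.3%), 4009 of them higher in culture (18.1%) and 5363 lower (24.2%). Among members, 3394 were called and higher in all 4 cultured groups, which is 16.0% of autosomal genes, and 4777 were called and lower in all 4, which is 22.5%. The difference was at least 2-fold for 1615 of the higher and 860 of the lower. The 8 cultured arrays all lay above the 4 tissue arrays for 1586 called members and all below for 2047. Over all genes such a separation was seen for 7.38% above and 10.0% below.

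The direction of a call followed the level of the gene. Called higher members had a median signal of 6.82 in culture and 5.65 in tissue, and called lower members 3.24 in culture and 3.91 in tissue, near the dim end of these arrays. Among 2618 genes below 3 in tissue, 0.688% were called higher and 49.2% lower. From 5 to 6 in tissue, 35.5% were called higher and 9.74% lower, and from 9 to 10 the shares were 22.8% and 42.8%. Lower calls were most frequent at both ends of the range. The tissue arrays had the narrower range of signals, and beyond the rescalings given with the gene groups its part in these calls was not tested. When the 6 group means were taken as the units of the test, so that lines and stages gave the error, 1440 members were called higher and 2724 lower. Of all calls 42.8% were higher, and 65.1% when genes not above the array median on at least 2 arrays were left out.

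**Figure D1:**
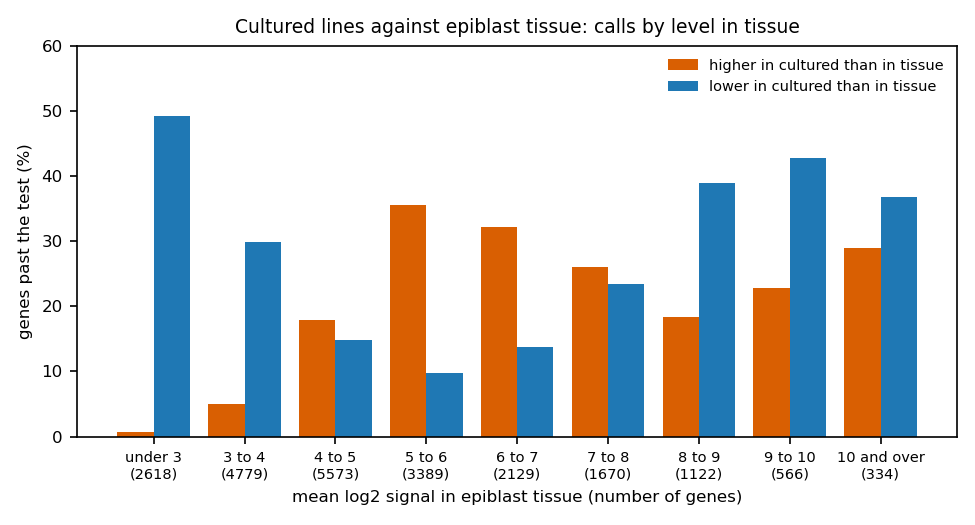
Share of genes called higher (left bars) or lower (right bars) in cultured lines than in epiblast tissue (y axis, %), by the mean log2 signal of the gene in tissue (x axis, number of genes in brackets). Lower calls reach 49.2% below a signal of 3, and higher calls are most frequent, 35.5%, from 5 to 6.

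The genes named for the largest differences, on either side, were drawn only from called members without array overlap. Their lack of overlap is thus not a result. The potassium channel gene Kcnma1 was among the genes furthest above tissue. Its lowest, median and highest signals over the 8 cultured arrays were 7.60, 8.40 and 9.32, against 3.73, 4.45, 4.42 and 3.77 in the tissue arrays (E5.75 replicates 1 and 2, then E6.5 replicates 1 and 2, as in all such lists below). The difference was 4.43 ± 0.24 (SE, adjusted p = 4.52e-07), with no overlap. A dimmer second probe set of Kcnma1 missed the threshold with 0.07 ± 0.20 (adjusted p = 0.801), in a fit of every probe set that also gives the other values of further probe sets here. Nid1, which encodes the basement membrane linker nidogen, had 4.91, 7.48 and 10.59 in culture and 3.06, 2.38, 3.84 and 3.46 in tissue, a difference of 4.30 ± 0.30 (adjusted p = 2.18e-06). ESC and EpiSC stood highest for Nid1 and the rsEpiSC groups nearest to tissue, though above it on every array. The second probe set of Nid1 gave 1.68 ± 0.34 (adjusted p = 0.00597), the same direction.

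Txnip, whose protein binds thioredoxin and curbs glucose uptake, had 6.89, 10.09 and 10.93 in culture and 5.41, 6.58, 5.89 and 5.51 in tissue. The difference was 3.76 ± 0.45 (adjusted p = 8.81e-05), and 1 EpiSC array stood far below the other cultured arrays. Cd151, a tetraspanin that partners laminin-binding integrins, had 7.99, 8.77 and 9.93 in culture against 5.44, 5.11, 5.13 and 5.39 in tissue, a difference of 3.58 ± 0.15 (adjusted p = 1.16e-07). Its tissue arrays lay close together, all of them below every cultured array. Commd4, an endosomal trafficking gene, had 8.47, 9.00 and 9.44 in culture and 5.57, 5.97, 5.13 and 5.34 in tissue, a difference of 3.45 ± 0.16 (adjusted p = 2e-07) that was nearly the same in all 4 groups, from 3.11 to 3.72. Sft2d2, a Golgi transport gene, differed by 3.40 ± 0.19, and Ddx5, an RNA helicase gene, by 3.20 ± 0.43, each with no overlap.

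Several of the largest increases were in genes of basic machinery or of multigene families, where a probe set can stand apart from its gene. Rplp0, a ribosomal stalk protein, had 10.44, 10.88 and 11.05 in culture and 6.45, 6.99, 6.70 and 7.01 in tissue, a difference of 4.03 ± 0.13 (adjusted p = 2.63e-08), but its second probe set differed by only 0.39 ± 0.22 (adjusted p = 0.197). Ndufa11, of respiratory complex I, differed by 3.36 ± 0.34 and 2.24 ± 0.17 with its 2 probe sets (adjusted p = 2.89e-05 and 6.15e-05). The testis-enriched cytochrome oxidase subunit Cox6b2 was 3.22 higher. H2ac15, a histone H2A gene with near-identical copies, was 4.49 higher, but its tissue arrays ran from 2.93 to 6.27. Of 115 members at least 2-fold higher that had several probe sets, another probe set was called higher for 52 and had the opposite sign for 32. Of 46 members at least 2-fold lower that had several, another was called lower for 13 and had the opposite sign for 16. The probe set kept for each gene was the brightest.

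**Figure D2:**
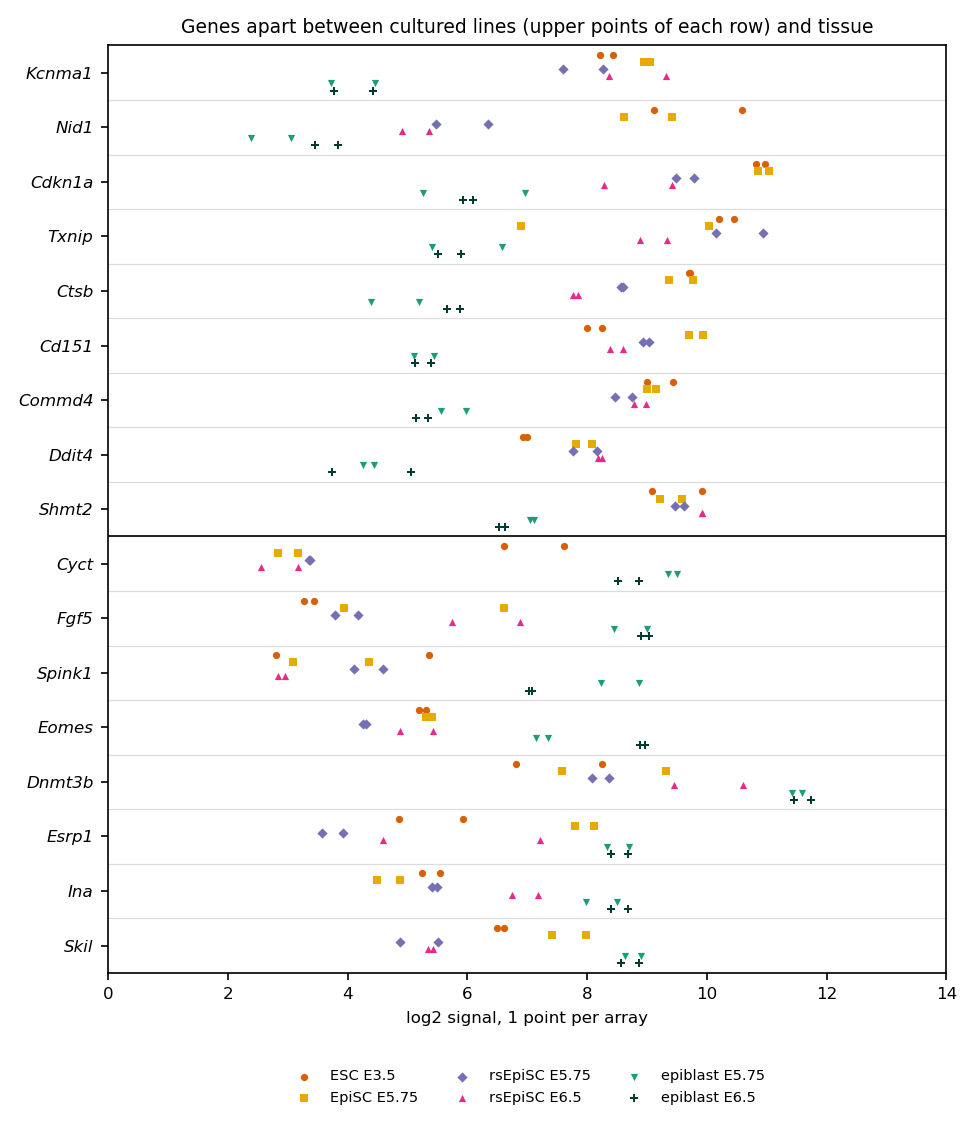
Log2 signal (x axis) on each of the 12 arrays for 9 genes higher and, below the black line, 8 genes lower in cultured lines than in epiblast tissue; colours and shapes give the group, and in each row the cultured groups are drawn above the tissue groups. The 8 cultured arrays and the 4 tissue arrays do not overlap for any of the 17 genes. All but Shmt2 are among those named for the largest differences, which were drawn only from genes without overlap. For them the separation is not a result.

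Genes of the integrated stress response and of amino acid supply were higher in culture as a group. Of 22 measured autosomal members of the list, 15 were called and higher in all 4 cultured groups and 0 lower, with a median difference of 1.65, beside 16.0% called higher and a median of -0.14 over the genes tested. Asns, which makes asparagine and is a textbook ATF4 target, had 9.90, 10.27 and 10.88 in culture against 7.91, 8.19, 7.79 and 8.20 in tissue. The difference was 2.33 ± 0.13 (adjusted p = 5.05e-07), with every cultured array above every tissue array. Shmt2, the mitochondrial serine hydroxymethyltransferase, had 9.09, 9.60 and 9.92 in culture and 7.12, 7.04, 6.64 and 6.52 in tissue, a difference of 2.76 ± 0.16 (adjusted p = 9.77e-07). Ddit4, an inhibitor of mTORC1 signalling also induced by low oxygen, had 6.93, 7.95 and 8.24 in culture and 4.25, 4.43, 3.75 and 5.06 in tissue, a difference of 3.40 ± 0.23 (adjusted p = 1.74e-06). Sesn2, a leucine sensor shared with the p53 list, differed by 2.86 ± 0.33 (adjusted p = 6.41e-05).

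The differences of single groups from tissue, in the order ESC, EpiSC, rsEpiSC E5.75 and rsEpiSC E6.5, were 2.82, 2.25, 2.00 and 2.25 for Asns, 2.68, 2.57, 2.72 and 3.09 for Shmt2 and 2.59, 3.58, 3.59 and 3.84 for Ddit4. The F test among the cultured groups did not reach the threshold for these genes (adjusted p = 0.0822, 0.661 and 0.137). The 4 values of each gene share the same tissue arrays and are not independent. The pseudokinase Trib3 and the receptor Vldlr were called in the mean, at 1.29 ± 0.27 and 0.95 ± 0.20, but were not higher in every group: rsEpiSC E5.75 stood at -0.11 for Trib3 and ESC at -0.36 for Vldlr. Under scaling of all arrays to 1 interquartile range the list kept 14 genes higher, with 2 lower.

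ATF4 binds with a C/EBP partner to a site of the form TGATGNAA. Windows from 250 bases before to 50 bases after annotated gene starts were taken from RefSeq (GRCm38.p6), and both strands were searched. The letters were found in 7 of 21 list genes with a window, beside 4.51% of all 27025 genes with one. Of the 14 called higher with a window, 4 had them. Those 4 promoters are shown. The match is in capitals, and where it lies on the strand opposite to the gene it reads TTGCATCA here. Chac1, Atf3 and Nupr1 were named after their values were seen. The lines give Asns at chr6:7693160-7693459 (minus strand), Chac1 at chr2:119350992-119351291 (plus), Atf3 at chr1:191183284-191183583 (minus) and Nupr1 at chr7:126625421-126625720 (minus), each 5′ to 3′ along the gene.
Asns: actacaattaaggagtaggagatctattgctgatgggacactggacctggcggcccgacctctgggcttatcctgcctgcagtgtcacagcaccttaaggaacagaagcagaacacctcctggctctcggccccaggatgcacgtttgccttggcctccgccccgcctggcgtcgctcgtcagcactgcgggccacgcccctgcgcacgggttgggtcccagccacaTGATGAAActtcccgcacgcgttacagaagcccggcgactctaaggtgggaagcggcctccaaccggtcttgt
Chac1: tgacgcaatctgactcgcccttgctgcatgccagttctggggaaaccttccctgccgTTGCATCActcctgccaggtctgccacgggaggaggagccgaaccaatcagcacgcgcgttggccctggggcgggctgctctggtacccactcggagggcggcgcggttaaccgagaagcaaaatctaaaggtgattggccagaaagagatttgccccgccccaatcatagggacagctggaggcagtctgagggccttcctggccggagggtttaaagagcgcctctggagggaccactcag
Atf3: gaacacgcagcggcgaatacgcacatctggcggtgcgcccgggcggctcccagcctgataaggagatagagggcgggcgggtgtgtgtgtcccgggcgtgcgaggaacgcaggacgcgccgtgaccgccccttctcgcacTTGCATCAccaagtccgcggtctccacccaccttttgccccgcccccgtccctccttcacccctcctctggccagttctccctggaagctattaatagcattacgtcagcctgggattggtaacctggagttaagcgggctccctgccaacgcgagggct
Nupr1: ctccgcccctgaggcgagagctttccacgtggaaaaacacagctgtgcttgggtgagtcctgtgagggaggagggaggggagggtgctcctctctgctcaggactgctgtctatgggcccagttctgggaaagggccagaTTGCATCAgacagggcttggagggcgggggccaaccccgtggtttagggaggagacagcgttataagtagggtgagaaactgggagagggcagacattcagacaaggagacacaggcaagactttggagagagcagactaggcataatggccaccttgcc
In Asns the match starts 23 bases before the annotated start. Chac1, which degrades glutathione, differed by 2.00 ± 0.36 (adjusted p = 0.00128), the stress factor Atf3 by 1.03 ± 0.24 (adjusted p = 0.00499) and the stress-induced chromatin gene Nupr1 by 1.80 ± 0.28 (adjusted p = 0.000449). A match is a description of the letters and says nothing of binding, and Shmt2, Ddit4 and Sesn2 had none in this window. The list was written to hold known ATF4 targets, so its share of matches is not a result about these data.

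The aminoacyl tRNA synthetases, which charge tRNAs, went the same way with smaller differences that depended on scaling. Of 17 genes 10 were called higher and 0 lower, beside 16.0% and 22.5% over autosomal genes, with a median of 0.63. With arrays scaled to 1 interquartile range the median turned to -0.72, with 3 higher and 9 lower. Sars, for serine, differed by 2.02 ± 0.20 (adjusted p = 2.41e-05), Wars, for tryptophan, by 1.32 ± 0.19 (adjusted p = 0.000317) and Mars1, for methionine, by 1.23 ± 0.17 (adjusted p = 0.000204). Lars, for leucine, and Hars, for histidine, did not pass, at 0.45 ± 0.17 and -0.33 ± 0.15. Among 16 amino acid, nucleoside and folate transporters, 7 were called higher and 0 lower, led by the neutral amino acid carriers Slc1a4 (1.68 ± 0.24) and Slc1a5 (1.61 ± 0.40). Slc38a4 was called lower in the mean, at -2.22 ± 0.44, but stood at 2.04 in ESC.

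Targets of p53 were higher in culture. Of 18 genes, 13 were called higher in all 4 groups and 0 lower, beside 16.0% and 22.5% over autosomal genes. The median was 1.40, and 12 were higher with 1 lower after scaling to 1 interquartile range. Cdkn1a, the inhibitor of cyclin-dependent kinases p21, had 8.28, 10.31 and 11.05 in culture against 5.25, 6.96, 6.09 and 5.92 in tissue. The difference was 4.03 ± 0.29 (adjusted p = 2.49e-06), at least 2.79 in each group, and no array overlapped. Trp53inp1, a stress-induced autophagy gene, had 6.84, 8.37 and 9.48 in culture and 5.01, 7.18, 4.98 and 5.03 in tissue, a difference of 2.77 ± 0.33 (adjusted p = 8.17e-05). Its arrays overlapped. The antiproliferative gene Btg2 differed by 2.96 ± 0.30 (adjusted p = 2.86e-05). Mdm2, which marks p53 for destruction and is its target, was called in the mean (0.76 ± 0.19, adjusted p = 0.00798) but not in every line, with 1.55, 1.81, -0.03 and -0.29 in ESC, EpiSC, rsEpiSC E5.75 and rsEpiSC E6.5.

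Of 13 D cyclins, their kinases and inhibitors, 8 were called higher and 0 lower, with a median of 1.11. Cdk4 had 9.57, 10.41 and 10.71 in culture and 8.22, 9.30, 8.41 and 8.71 in tissue, a difference of 1.68 ± 0.19 (adjusted p = 5.75e-05), without overlap. Ccnd3 differed by 1.40 ± 0.20 and the inhibitor Cdkn2d by 1.13 ± 0.19. Ccnd2 was called in the mean, at 2.65 ± 0.32, although ESC lay below tissue at -0.85, and Ccnd1 missed the threshold at 0.93 ± 0.35 (adjusted p = 0.0506). Of 22 genes of the cell cycle at large, 5 were called higher and 5 lower (22.7% each), with a median of 0.03. Over autosomal genes the shares were 16.0% and 22.5%. Scaling to 1 interquartile range turned the counts to 1 higher and 16 lower. The mitotic genes Cdc20 (1.68 ± 0.25), Birc5 (1.12 ± 0.23) and Aurkb (1.05 ± 0.13) were higher. The proliferation antigen Mki67, named after its value was seen, was lower at -0.91 ± 0.17 (adjusted p = 0.0016).

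Lysosomal genes had the largest median of the lists. Of 18 genes, 13 were called higher and 1 lower, beside 16.0% and 22.5% over autosomal genes. The median was 1.85, and 11 were higher with 2 lower after scaling to 1 interquartile range. The protease gene Ctsb had 7.77, 8.98 and 9.77 in culture against 4.40, 5.19, 5.87 and 5.66 in tissue. Its difference was 3.64 ± 0.17 (adjusted p = 2.38e-07), and no arrays overlapped. Npc2, which hands cholesterol out of the lysosome, had 10.10, 10.81 and 11.30 in culture and 7.51, 8.26, 7.82 and 8.27 in tissue, a difference of 2.72 ± 0.17 (adjusted p = 1.19e-06). The protective protein gene Ctsa differed by 2.66 ± 0.24 (adjusted p = 1.2e-05). Ctsc, a protease of immune granules, was the member called lower, at -2.54 ± 0.42 (adjusted p = 0.00066), with ESC at -0.25 and the other 3 groups at -3.23, -3.52 and -3.16.

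The transcription factor TFEB binds lysosomal genes at an extended E-box. The letters searched, CACGTGAC, contain the shorter hypoxia motif ACGTG on both strands. This motif, the sterol one used for cholesterol genes, Ctsd and Lamp1 were chosen after values were seen. The letters were found in 4 of 14 lysosomal genes with a window, beside 2.55% of all genes with one, and those 4 were all among the 11 called higher with a window. The promoters of Ctsd, at chr7:142387778-142388077 (minus strand), Ctsa, at chr2:164833523-164833822 (plus), and Lamp1, at chr8:13158911-13159210 (plus), show the match in capitals, which reads GTCACGTG on the opposite strand.
Ctsd: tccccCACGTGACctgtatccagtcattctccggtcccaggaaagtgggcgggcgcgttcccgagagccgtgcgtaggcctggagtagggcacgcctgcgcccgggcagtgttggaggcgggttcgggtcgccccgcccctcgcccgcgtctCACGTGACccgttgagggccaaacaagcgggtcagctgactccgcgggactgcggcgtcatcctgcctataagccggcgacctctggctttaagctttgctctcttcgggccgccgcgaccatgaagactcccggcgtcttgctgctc
Ctsa: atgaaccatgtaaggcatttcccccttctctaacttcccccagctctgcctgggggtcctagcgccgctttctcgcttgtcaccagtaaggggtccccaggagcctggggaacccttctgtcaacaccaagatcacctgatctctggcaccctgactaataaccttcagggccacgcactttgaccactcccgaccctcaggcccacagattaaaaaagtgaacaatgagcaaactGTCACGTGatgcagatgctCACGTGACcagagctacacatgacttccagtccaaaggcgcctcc
Lamp1: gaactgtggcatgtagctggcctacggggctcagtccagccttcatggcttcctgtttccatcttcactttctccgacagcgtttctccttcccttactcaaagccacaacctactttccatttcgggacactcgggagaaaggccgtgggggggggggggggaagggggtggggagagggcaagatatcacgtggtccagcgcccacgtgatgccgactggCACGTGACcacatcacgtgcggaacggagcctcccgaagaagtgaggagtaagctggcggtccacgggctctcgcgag
Ctsd, a protease gene, differed by 2.39 ± 0.13 (adjusted p = 5.89e-07), and Lamp1, a protein of the lysosomal membrane, by 1.70 ± 0.09 (adjusted p = 5.42e-07). Npc2 had no match in this window, and Ctsb had no window in the table. The site is known from lysosomal genes, so the share of matches in the list is not a result about these data.

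Cholesterol synthesis genes were higher in culture, but by unequal amounts among the lines. Of 15 genes, 12 were called higher in all 4 groups and 0 lower, beside 16.0% and 22.5% over autosomal genes. The overall list median was 1.31, and 8 were higher after scaling to 1 interquartile range. The median of the list was 0.40 for ESC, against 1.11 for EpiSC, 2.22 for rsEpiSC E5.75 and 1.67 for rsEpiSC E6.5. Insig1, the sterol-regulated retention factor of SREBP, had 7.65, 9.06 and 10.27 in culture against 6.91, 7.64, 6.18 and 6.63 in tissue. The difference was 2.22 ± 0.32 (adjusted p = 0.00031), and the arrays did not overlap. Fdps, which makes farnesyl diphosphate, had 8.27, 10.25 and 11.08 in culture and 7.74, 8.51, 7.32 and 8.01 in tissue, a difference of 2.06 ± 0.17 (adjusted p = 8.3e-06), while ESC stood 0.40 above tissue. The last enzyme of the pathway, Dhcr7, showed the same order, with 0.46, 2.06, 3.46 and 2.53 in ESC, EpiSC, rsEpiSC E5.75 and rsEpiSC E6.5 (F test among them, adjusted p = 0.000144). Hmgcs1, the entry enzyme, was called in the mean at 1.06 ± 0.15 but was -0.20 in ESC, and turned to -0.14 after scaling to 1 interquartile range. The sterol response letters TCACNCCA were in 2 of 12 list genes with a promoter window, beside 4.97% of all genes. Of the 10 called higher with a window, 1 had them.

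Of 19 genes of fatty acid synthesis and oxidation, 9 were called higher and 0 lower, beside 16.0% and 22.5% over autosomal genes. Their median was 1.08, and 0.03 after scaling to 1 interquartile range. The mitochondrial thiolase Acaa2 had 6.03, 7.28 and 8.65 in culture and 4.94, 4.95, 5.21 and 5.38 in tissue, a difference of 2.27 ± 0.21 (adjusted p = 1.32e-05). The carrier gene Fabp3 differed by 2.02 ± 0.22 with its brighter and 0.16 ± 0.21 with its other probe set, the desaturase Scd1 by 1.59 ± 0.29 and fatty acid synthase, Fasn, by 1.39 ± 0.31. Fasn was 0.12 and 0.30 above tissue in ESC and EpiSC and 2.89 and 2.26 in rsEpiSC E5.75 and E6.5. Cpt1a, which admits fatty acids to mitochondria, ran the other way among the lines, with 3.18, 2.67, -0.46 and -0.70 in the same order of groups.

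Basement membrane genes were higher in culture. Of 17 basement membrane genes, 11 were called higher and 0 lower, beside 16.0% and 22.5% over autosomal genes, with a median of 1.32. Beside Nid1, fibronectin, Fn1, had 7.55, 8.85 and 11.61 in culture and 6.32, 6.84, 7.66 and 7.87 in tissue, a difference of 2.03 ± 0.19 (adjusted p = 1.81e-05). Its arrays overlapped. Frem2 differed by 1.55 ± 0.30 and the matrix glycoprotein gene Sparc by 1.51 ± 0.17. Of 22 focal adhesion and integrin genes, 8 were called higher and 3 lower, with a median of 0.49. After scaling to 1 interquartile range 4 were higher and 3 lower, with a median of 0.19. Among the higher genes, the lectin gene Lgals1 differed by 2.68 ± 0.27 (adjusted p = 2.45e-05). The fibronectin receptor subunit Itga5 differed by 1.18 ± 0.25 (adjusted p = 0.0031).

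Genes of the actin cytoskeleton and of SRF numbered 23, with 9 called higher and 1 lower, beside 16.0% and 22.5% over autosomal genes. The median was 0.92, but after scaling to 1 interquartile range 3 were higher and 3 lower. Csrp1, a LIM protein of actin bundles, had 7.31, 8.34 and 8.87 in culture and 4.87, 5.50, 5.31 and 5.28 in tissue, a difference of 2.89 ± 0.20 (adjusted p = 2.33e-06). The myosin light chain gene Myl6 differed by 2.81 ± 0.18 (adjusted p = 1.52e-06) and the calponin gene Cnn2 by 2.38 ± 0.30 (adjusted p = 0.000109). Tagln, a smooth muscle gene also carried by fibroblasts, was called in the mean at 1.83 ± 0.21 but followed the lines, with -0.05, 4.32, 2.47 and 0.57 in ESC, EpiSC, rsEpiSC E5.75 and rsEpiSC E6.5. In the same arrays the mean log2 signal of the 23 fibroblast feeder markers was 4.12 and 4.20 for ESC, 4.91 and 5.09 for EpiSC, 4.69 and 4.79 for rsEpiSC E5.75 and 4.38 and 4.44 for rsEpiSC E6.5, against 4.21 to 4.52 in tissue. Tagln and Acta2 are themselves among these markers, so their values enter that mean. The part of feeder cells in these differences was not tested.

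Of 20 YAP and TEAD targets, 8 were called higher and 1 lower, beside 16.0% and 22.5% over autosomal genes. The median was 0.46, and 4 were higher after scaling to 1 interquartile range. The matricellular gene Ccn1 had 5.90, 7.63 and 10.46 in culture against values from 4.86 to 5.75 in tissue, a difference of 2.53 ± 0.25 (adjusted p = 2.21e-05), without overlap. EpiSC stood highest, at 4.90 above tissue, and rsEpiSC E6.5 lowest, at 0.90. Its relative Ccn2 differed by 1.51 ± 0.29, or -0.05 ± 0.35 with a dimmer probe set, the phosphatase gene Ptpn14 by 1.22 ± 0.14 and the stress gene Gadd45b by 3.04 ± 0.34. The TEAD letters GGAATG were in 8 of 15 list genes with a window, beside 16.58% of all genes. The list was written as targets of these factors, so that share is not a result about these data. The letters are shown, as CATTCC on the opposite strand, in the Ccn1 promoter at chr3:145649936-145650235 (minus strand). Ccn1 is the member of the list with the largest difference that has them.
Ccn1: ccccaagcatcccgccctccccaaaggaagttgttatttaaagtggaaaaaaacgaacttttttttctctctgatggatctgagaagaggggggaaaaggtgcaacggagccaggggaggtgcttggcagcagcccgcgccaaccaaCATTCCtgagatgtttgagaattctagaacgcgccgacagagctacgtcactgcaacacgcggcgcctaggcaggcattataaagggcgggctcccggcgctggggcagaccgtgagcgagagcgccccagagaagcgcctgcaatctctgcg

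Of 19 keratin, S100 and annexin genes, 9 were called higher and 1 lower, beside 16.0% and 22.5% over autosomal genes. Another 5 were called in the mean without 1 direction. The list median was 1.18, but it followed the lines. It was 1.37 for ESC and 2.99 for EpiSC, against -0.14 for rsEpiSC E5.75 and 0.03 for rsEpiSC E6.5. The annexin gene Anxa2 had 6.68, 7.61 and 9.14 in culture and 3.85, 4.80, 4.26 and 5.86 in tissue, a difference of 3.08 ± 0.43 (adjusted p = 0.000225), and S100a6 differed by 2.80 ± 0.33 (adjusted p = 7.4e-05). Of 17 mesenchymal genes, 5 were called higher and 0 lower, beside 16.0% and 22.5% over autosomal genes, and 5 in the mean without 1 direction. Zeb1, which represses epithelial genes, was higher at 1.65 ± 0.18 (adjusted p = 4.18e-05).

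**Figure D3:**
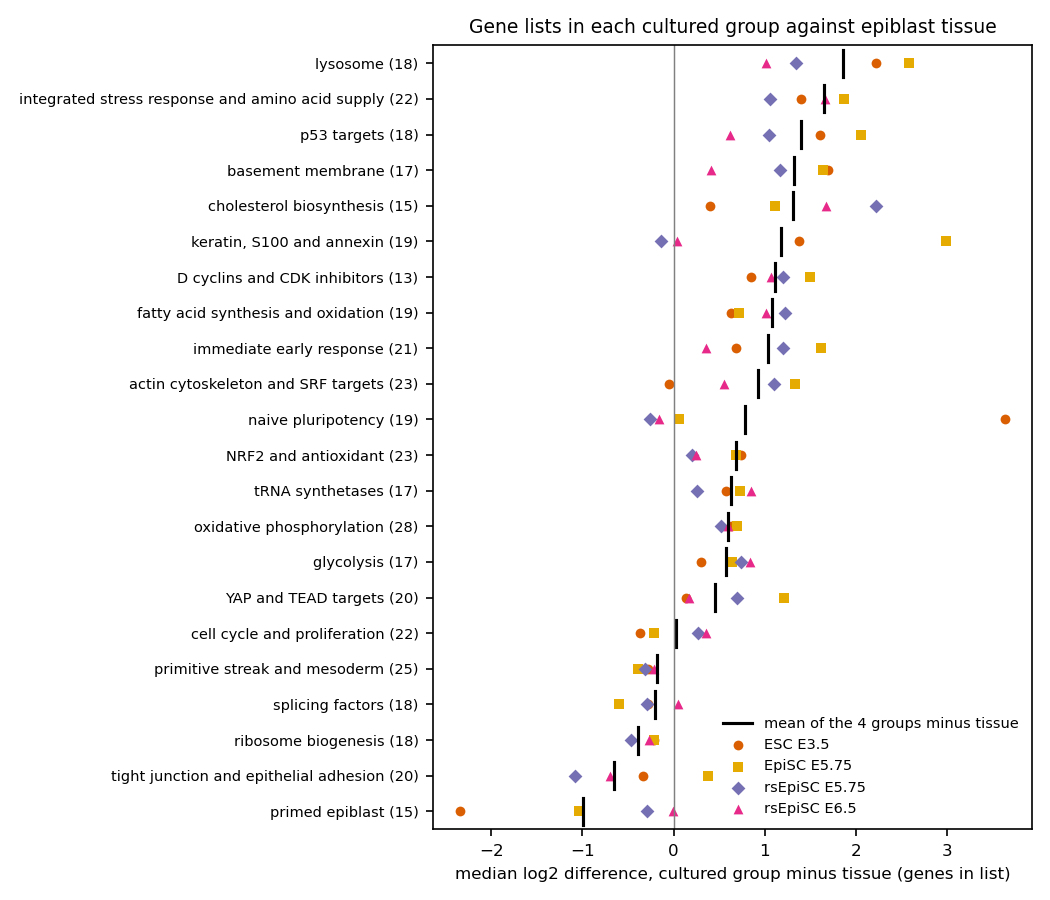
Median log2 difference from epiblast tissue (x axis) over the genes of each list (y axis, number of measured autosomal genes in brackets) in each of the 4 cultured groups (coloured points) and for the mean of the 4 groups (black bar). The lysosome, integrated stress response, p53, basement membrane and cholesterol lists are above 0 in all 4 groups, and the naive pluripotency list stands out in ESC; all 4 groups share the tissue arrays.

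Energy genes were higher in culture on the deposited scale, with a direction that did not hold under every scaling. Of 28 oxidative phosphorylation genes, 18 were called higher and 1 lower, beside 16.0% and 22.5% over autosomal genes. Their median was 0.60. Scaled to 1 interquartile range the median was -0.45, with 6 higher and 14 lower. Cox4i1, a core subunit of cytochrome oxidase, had 11.29, 11.41 and 11.64 in culture and 8.36, 9.58, 8.60 and 9.25 in tissue, a difference of 2.50 ± 0.19 (adjusted p = 4.43e-06). Sdhc, of complex II, differed by 2.04 ± 0.18 and Uqcrc1, of complex III, by 1.81 ± 0.12. Of 17 glycolysis genes, 9 were called higher and 0 lower, with a median of 0.57 that was -0.23 after the same scaling. The glucose transporter gene Slc2a3 had 9.45, 10.07 and 10.59 in culture and 6.39, 7.37, 7.69 and 6.99 in tissue, a difference of 2.90 ± 0.21 (adjusted p = 2.53e-06) that was near the same size in every line. The muscle-type enzymes Pfkm and Eno2, dim in tissue, differed by 1.97 ± 0.26 and 1.72 ± 0.23.

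Antioxidant genes rose in part: 10 of 23 were called higher and 3 lower, beside 16.0% and 22.5% over autosomal genes. Their median was 0.69, and -0.08 after scaling to 1 interquartile range. Catalase, Cat, had 8.52, 9.06 and 9.24 in culture and 6.06, 7.11, 6.80 and 7.05 in tissue, a difference of 2.22 ± 0.19 (adjusted p = 8.91e-06). The lipid peroxide reductase Gpx4 differed by 2.28 ± 0.20 and the glutathione transferase Gstp1 by 2.39 ± 0.29. Nqo1, a classical NRF2 target, was called in the mean at 1.66 ± 0.30 but stood at 3.42, 3.10, -0.14 and 0.24 in ESC, EpiSC, rsEpiSC E5.75 and rsEpiSC E6.5. The antioxidant response letters TGACNNNGC were in 6 of 19 list genes with a promoter window, beside 13.99% of all genes. Of the 9 called higher with a window, 2 had them. Of 14 metallothionein and metal-handling genes, 7 were called higher and 0 lower, or 2 higher and 5 lower after that scaling. The metallothionein gene Mt2 differed by 1.39 ± 0.13 (adjusted p = 1.72e-05), and by -0.13 after scaling to 1 interquartile range.

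Of 21 immediate early genes, 12 were called higher and 1 lower, beside 16.0% and 22.5% over autosomal genes, with a median of 1.03. Jun differed by 1.86 ± 0.27 (adjusted p = 0.000263) and was near tissue in rsEpiSC E6.5, at 0.34. Egr1 was called in the mean at 1.35 ± 0.28, with ESC at -0.57. Myc was the member called lower: it had 4.41, 6.57 and 6.95 in culture and 7.27, 8.44, 8.68 and 7.97 in tissue, a difference of -1.96 ± 0.35 (adjusted p = 0.00116), without overlap. Of 17 heat shock and chaperone genes, 5 were called higher and 5 lower (29.4% each), beside 16.0% and 22.5% over autosomal genes. After scaling to 1 interquartile range 3 were higher and 11 lower. The small heat shock genes Cryab and Hspb8 were higher by 3.47 ± 0.29 and 2.06 ± 0.29, while the inducible Hspa1b was called lower in the mean at -1.71 ± 0.28 with ESC at 0.26.

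On the lower side the testis-type cytochrome c gene Cyct was furthest from tissue. It had 2.55, 3.27 and 7.61 in culture against 9.51, 9.35, 8.52 and 8.88 in tissue, a difference of -4.98 ± 0.21 (adjusted p = 1.16e-07). The highest cultured arrays were the 2 of ESC, and the other 3 groups lay between 2.86 and 3.37 on average. Fgf5, the growth factor that marks the epiblast after implantation, had 3.28, 4.06 and 6.88 in culture and 8.45, 9.00, 8.90 and 9.03 in tissue. Its difference was -4.11 ± 0.40 (adjusted p = 2.06e-05), largest in ESC at -5.49 and smallest in rsEpiSC E6.5 at -2.53. The methyltransferase gene Dnmt3b had 6.81, 8.32 and 10.60 in culture and 11.43, 11.59, 11.75 and 11.45 in tissue, a difference of -3.00 ± 0.34 (adjusted p = 5.55e-05). For both genes no cultured array reached the tissue arrays.

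Of 15 primed epiblast genes, 0 were called higher and 5 lower in all 4 groups, with a median of -0.99, beside 22.5% called lower over autosomal genes. Zic5, a zinc finger factor, differed by -1.77 ± 0.28 (adjusted p = 0.000465) and the POU factor Pou3f1 by -1.14 ± 0.18 (adjusted p = 0.000472). Pou3f1 was lowest in ESC and nearest to tissue in rsEpiSC E6.5, at -0.18. Otx2, a defining factor of this stage, was called in the mean at -1.31 ± 0.20 (adjusted p = 0.000428) without 1 direction: ESC and EpiSC stood at -3.75 and -1.58, while rsEpiSC E5.75 stood at 0.12. Without ESC in the mean the list median was -0.54.

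Of 25 primitive streak and mesoderm genes, 7 were called lower in all 4 groups and 0 higher, with a median of -0.18, again near the 22.5% over autosomal genes. Eomes, the T-box factor of the streak and also of trophoblast, had 4.25, 5.25 and 5.43 in culture against 7.14, 7.35, 8.88 and 8.97 in tissue, a difference of -3.08 ± 0.16 (adjusted p = 3.98e-07). The E6.5 tissue arrays were the highest for it, and the cultured arrays lay below both stages. Mixl1, a homeobox gene of the streak, had 3.73, 4.22 and 4.46 in culture and 4.28, 3.56, 6.95 and 7.88 in tissue, a difference of -1.53 ± 0.22 (adjusted p = 0.000316) that was 0.22 against E5.75 tissue alone, so it rests on the E6.5 arrays. The same held for the Activin antagonist Fst, at -0.98 ± 0.35 against both stages and 0.35 against E5.75 alone. Fgf8, which guides cells through the streak, was lower by 0.95 on the log2 scale, nearly the same in each line. Its cultured arrays, from 3.96 to 4.50, lay below the array medians, where even distances carry little information. Its tissue arrays had 4.80, 4.53, 5.46 and 5.79, so the E5.75 arrays were close to culture.

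Skil, which encodes the SMAD repressor SnoN and is induced by Activin and Nodal signals, had 4.88, 6.00 and 7.98 in culture and 8.90, 8.64, 8.57 and 8.87 in tissue. The difference was -2.54 ± 0.18 (adjusted p = 2.63e-06), smallest in EpiSC, at -1.05, and -3.55 and -3.36 in the rsEpiSC groups. Of 20 tight junction and epithelial adhesion genes, 5 were called lower, a share near that over autosomal genes, and 1 higher, and 7 more were called in the mean without 1 direction. The epithelial splicing factor Esrp1 had 3.58, 5.39 and 8.12 in culture and 8.33, 8.70, 8.68 and 8.41 in tissue, a difference of -2.78 ± 0.39 (adjusted p = 0.000236). EpiSC lay just below tissue at -0.57, and rsEpiSC E5.75 far below at -4.78 (F test among the lines, adjusted p = 0.00512). Grhl2, a master factor of epithelia, differed by -1.73 ± 0.19 (adjusted p = 4.74e-05). Epcam and Cldn6 were called lower in the mean, at -1.38 ± 0.32 and -2.18 ± 0.42, but EpiSC stood above tissue at 0.50 and 1.14.

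Ina, a neuronal intermediate filament gene, had 4.49, 5.45 and 7.18 in culture and 7.99, 8.49, 8.40 and 8.69 in tissue, a difference of -2.77 ± 0.18 (adjusted p = 1.52e-06), with no overlap. Syt4, of the synaptotagmin family, had 2.89, 4.02 and 5.55 in culture and 7.58, 7.24, 7.28 and 7.12 in tissue, a difference of -3.17 ± 0.30 (adjusted p = 1.81e-05), but its 2 other probe sets were at -0.19 and -0.46 and missed the threshold. Smim13, a small membrane protein gene, differed by -2.72 ± 0.25, but its second probe set by 0.43 ± 0.23 (adjusted p = 0.163). Macc1 and the meiotic gene Tex12 differed by -2.31 ± 0.19 and -2.26 ± 0.21 with little spread among the cultured arrays. Those arrays were dim, from 2.40 to 3.05 for Macc1 and from 2.59 to 3.42 for Tex12, so the small spread carries little information. Zfp981 and Trim12c belong to families of near-identical copies, so their -3.04 ± 0.26 and -2.93 ± 0.51 are uncertain; so is the -2.42 ± 0.61 of the histone gene H2bc1, for which 1 tissue array stood at 7.05 and the other 3 at 3.40 or below.

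Of 18 ribosome biogenesis genes, which build ribosomes, 9 were called lower and 2 higher, beside 22.5% and 16.0% over autosomal genes, with a median of -0.40, and 12 were lower with 0 higher after scaling to 1 interquartile range. The nucleolar gene Nop58 had 9.52, 10.04 and 10.35 in culture and 10.84, 10.79, 11.00 and 10.99 in tissue, a difference of -0.97 ± 0.12 (adjusted p = 0.000105), without overlap. Rrp9 and Nip7 were the members called higher, at 1.05 ± 0.22 and 0.83 ± 0.16. Of 18 splicing factors, 5 were called lower and 1 higher, with a median of -0.21, a share near the 22.5% called lower over autosomal genes. Luc7l3, of the U1 machinery, had 7.91, 8.58 and 9.17 in culture and 10.08, 9.35, 10.13 and 10.07 in tissue, a difference of -1.33 ± 0.17 (adjusted p = 0.00015). Srsf10 was lower by 1.03 on the log2 scale. Hnrnpd is uncertain, since its probe sets were called in opposite directions, at -0.71 ± 0.15 and 1.85 ± 0.25.

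The core pluripotency factors lay on both sides of tissue, with list medians of 1.17 for ESC, 0.36 for EpiSC, -1.89 for rsEpiSC E5.75 and -1.16 for rsEpiSC E6.5. Of 10 genes, 1 was called higher in all 4 groups and 1 lower, beside 16.0% and 22.5% over autosomal genes. Another 4 were called in the mean without 1 direction. Pou5f1 had 3.86, 5.47 and 7.11 in culture and 5.54, 5.91, 5.83 and 5.75 in tissue, a difference of -0.19 ± 0.20 (adjusted p = 0.462). Sox2 differed by -0.31 ± 0.15 (adjusted p = 0.111) and Nanog by -0.10 ± 0.22 (adjusted p = 0.716). For Nanog the lines lay on both sides of tissue, with 3.04, 0.81, -2.66 and -1.60 in ESC, EpiSC, rsEpiSC E5.75 and rsEpiSC E6.5. Sall4 was higher in all 4 lines at 0.80 ± 0.16 (adjusted p = 0.0026), but at -0.07 after scaling to 1 interquartile range and at -0.38 ± 0.26 with a dimmer probe set. Dppa4 was lower at -3.09 ± 0.22 (adjusted p = 2.43e-06), by -0.58 in ESC and by -4.09 and -4.19 in the rsEpiSC groups.

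Cripto, Tdgf1, a co-receptor of Nodal, stood at 2.76, 2.43, -4.84 and -4.84 and the chromatin factor Utf1 at 1.06, 2.33, -2.06 and 1.26 in the same order of groups. Lin28a, which blocks let-7 microRNAs, stood at -0.40, 0.74, 2.71 and 2.62.

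Naive pluripotency genes had a median difference of 3.63 for ESC, against 0.06 for EpiSC, -0.26 for rsEpiSC E5.75 and -0.16 for rsEpiSC E6.5. Of 19 genes, 5 were called higher in all 4 groups (26.3%) and 0 lower, beside 16.0% and 22.5% over autosomal genes. Another 9 were called in the mean without 1 direction. Klf4, a naive factor, differed by 1.08 ± 0.17 (adjusted p = 0.000449), with 4.51 in ESC and 0.29, -0.31 and -0.16 in the other 3 groups, and by -0.06 without ESC. Tet2, which oxidises methylcytosine, had 4.14, 4.72 and 8.54 in culture against 3.08, 3.41, 3.85 and 3.03 in tissue, a difference of 2.05 ± 0.23 (adjusted p = 4.68e-05). All cultured arrays of Tet2 were above tissue, the ESC arrays by far the most. The naive factor Klf5 stood at 4.77, 2.18, -0.38 and -0.16 in ESC, EpiSC, rsEpiSC E5.75 and rsEpiSC E6.5. Stat3, the mediator of LIF, differed by 1.39 ± 0.19 (adjusted p = 0.00018), and Fbxo15 by 1.93 ± 0.19. Sox1, a neural ectoderm factor outside the naive list, was higher in every line, with 5.55, 6.87 and 8.66 in culture and 4.53, 4.72, 4.18 and 4.27 in tissue, a difference of 2.55 ± 0.19 (adjusted p = 3.68e-06).

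**Figure D4:**
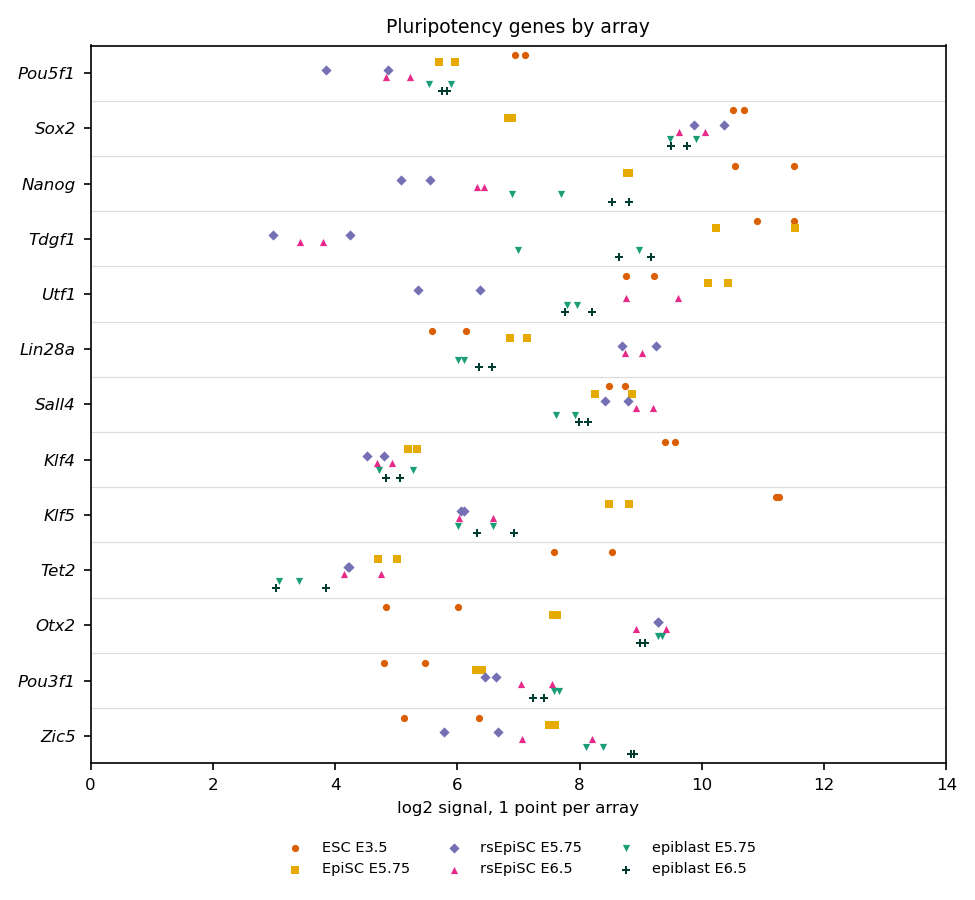
Log2 signal (x axis) of 13 pluripotency and epiblast genes on each of the 12 arrays; colours and shapes give the group, with the cultured groups drawn above the tissue groups in each row. Pou5f1, Sox2 and Nanog arrays of cultured lines lie on both sides of tissue, and Klf4 is high in ESC alone.

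How alike the cultured groups were to each other was tested with an F test in the same fit. It passed for 11.6% of all genes, for 576 of the 3394 called higher members and for 205 of the 4777 called lower members. The 4 group means of a called member spanned a median of 0.75 when higher in culture and 0.38 when lower, beside 0.51 over all genes. Members were chosen for 1 direction in all 4 groups, which can itself limit their spread. The called lower members were also dim, with a median of 3.24 in culture. The spans and F counts of members are therefore no separate evidence of likeness. Of the called higher members, ESC were furthest from tissue for 886, EpiSC for 1149, rsEpiSC E5.75 for 849 and rsEpiSC E6.5 for 510. In the same order the groups were nearest to tissue for 1243, 488, 584 and 1079. Their median differences over these members were 0.91, 1.08, 0.99 and 0.86. A member had a difference of at least 2-fold in each of the 4 groups in 674 cases higher and 274 lower. E6.5 tissue against E5.75 passed for 5 genes (0.0225%), 2 of which were called lower members.

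Markers of neighbouring cell types were measured on the same arrays. In bulk RNA fewer cells of a type and less RNA per cell cannot be told apart. Of 21 visceral endoderm markers, 6 were called lower in culture and 2 higher, beside 22.5% and 16.0% over autosomal genes, with a median of -0.19; their mean signal was 4.51 to 4.72 in culture and 4.87 to 4.99 in tissue. Spink1, a protease inhibitor gene of the list, had 2.80, 3.60 and 5.35 in culture and 8.23, 8.87, 7.09 and 7.03 in tissue, a difference of -4.04 ± 0.39 (adjusted p = 2.09e-05). Gata6 and Dab2, defining markers of that layer, were lower by 0.83 and 0.71 on the log2 scale. Gata6 had a cultured median of 3.46 and 3.60, 3.70, 4.64 and 5.39 in tissue, so its difference rests mostly on the E6.5 arrays. Quantile normalization left 0 of the visceral endoderm markers higher and 3 lower, and scaling to 1 interquartile range left 1 and 3. The apolipoprotein gene Apoa2 was called higher, at 0.88 ± 0.24 (adjusted p = 0.0118). Trophoblast markers had 2 of 15 higher and 4 lower, among them Eomes, with a mean signal of 4.56 to 5.16 in culture and 4.72 to 5.07 in tissue. Of the 23 fibroblast markers, 2 were called higher and 3 lower. Those higher were Mmp2 at 1.99 ± 0.25 and Acta2 at 1.51 ± 0.20. Dcn was lower, with 2.67, 3.04 and 3.87 in culture and 5.04, 5.56, 4.64 and 5.37 in tissue. The collagen gene Col1a2 was called in the mean, at 1.31 ± 0.39, without 1 direction. It stood at -1.28, 3.03, 3.16 and 0.32 in ESC, EpiSC, rsEpiSC E5.75 and rsEpiSC E6.5. Without ESC in the mean, 5 of the markers were called higher and 3 lower. Whether traces of these cells in tissue or of feeders in culture contribute to the calls was not tested.

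Rescaling changed which groups could be read. The stress response, p53, lysosome, cholesterol, basement membrane and D cyclin lists kept a positive median under quantile normalization and under scaling to 1 interquartile range, and the primed epiblast, tight junction, ribosome biogenesis and splicing lists a negative one. The tRNA synthetase, oxidative phosphorylation, glycolysis and antioxidant lists turned to a negative median under the second. Of called members, quantile normalization left 68.1% of the higher and 46.3% of the lower called in the same direction in all 4 groups. Scaling to 1 interquartile range left 55.7% and 46.1%. Under that scaling the mean difference changed sign for 422 called higher and 327 called lower members, against 4 and 130 under quantile normalization.

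**Figure D5:**
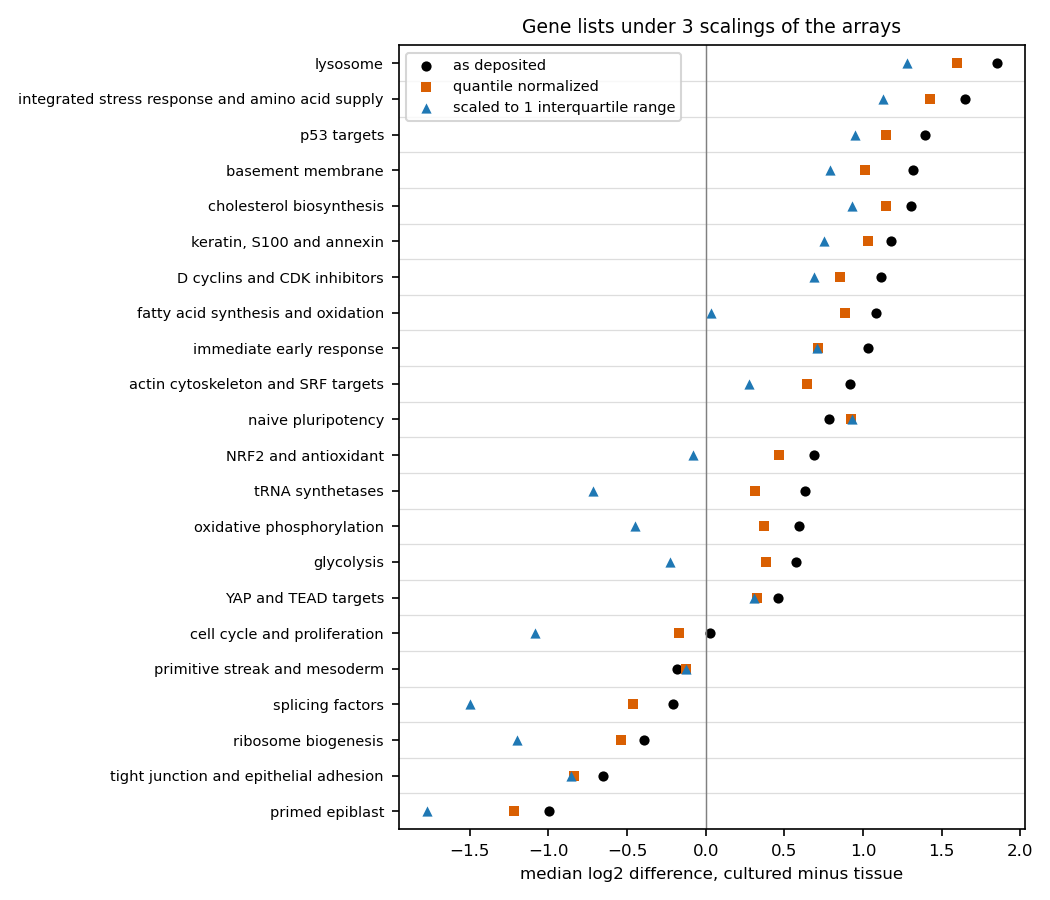
Median log2 difference, cultured minus tissue (x axis), of each gene list (y axis) with the signals as deposited (circles), after quantile normalization (squares) and after scaling every array to 1 interquartile range (triangles). The triangles of the oxidative phosphorylation (-0.45), tRNA synthetase (-0.72), glycolysis (-0.23), antioxidant and cell cycle lists lie below 0, while those of the stress response, p53 and lysosome lists stay above 0.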

How the data were processed

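RNA of 12 mouse samples, amplified from 100 ng of total RNA per the labels' protocols, was measured on microarrays. Those protocols name a human array, but the probe set identifiers match a mouse table. The deposited log2 signals of 41345 probe sets come from RMA in the oligo package, as named per the submitters' processing notes (versions not given in the sources used here), and were used as deposited. Of the probe sets, 23521 had 1 gene symbol, 1814 several and 16010 none. For each of 22180 genes the probe set with the highest mean was kept.

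limma 3.58.1 (R 4.3.3) fitted 6 group means with eBayes and a trend (residual degrees of freedom 6), with Benjamini-Hochberg adjustment over all genes and a threshold of 0.05. The F test compared the 4 cultured groups in the same fit. The script was tested on simulated data. The members and the 44 gene lists were chosen with earlier results of these data known. Genes were named as the 12 highest and 12 lowest called members without array overlap, the 8 and 8 with the largest smallest group difference, and, from each list, up to 4 called and up to 2 others, plus Pou5f1, Sox2, Nanog, Klf4, Fgf5, Otx2 and Dnmt3b. Other names were chosen after their values were seen. Promoter windows are from RefSeq, GRCm38.p6. Array scaling, block, filter, probe set and left-out-array alternatives were run.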

Additional observations from a re-analysis of the deposited data

Results flagged for a closer look

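For 14 of the 24 genes named for the largest differences, the 4 cultured groups differed from each other in their distance from tissue by the F test (limma, adjusted p under 0.05). The span between the largest and the smallest of the 4 distances is given on the log2 scale. Among genes higher in culture it was 4.72 for Nid1, 2.11 for Cdkn1a, 1.90 for Ctsb, 1.70 for Cd151 and 1.80 for Sft2d2. Among genes lower in culture it was 4.25 for Cyct, 2.96 for Fgf5, 1.94 for Syt4, 1.07 for Eomes, 2.49 for Dnmt3b, 4.21 for Esrp1, 2.28 for Ina, 1.84 for Smim13 and 2.50 for Skil. For Nid1 the distances were 6.67, 5.84, 2.73 and 1.95, for Esrp1 -3.14, -0.57, -4.78 and -2.63 and for Cyct -1.95, -6.06, -5.70 and -6.20 in ESC, EpiSC, rsEpiSC E5.75 and rsEpiSC E6.5. The groups differ in medium, stage of origin and line together, which cannot be told apart.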

How the results depend on the processing

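With the 6 group means as units, 4380 genes were called, 1477 higher and 2903 lower (members 1440 and 2724), and with the group as a random block 5680, 2308 higher and 3372 lower (members 2233 and 3163), against 9372, 4009 higher and 5363 lower (members 3394 and 4777) in the reported fit. Of 147 genes named in the text that were called, 83 kept the call with group means as units and 114 with the random block. Scaling to 1 interquartile range left 2656 genes higher, and quantile normalization 3416 lower (members 3030). The share of calls that were higher was 42.8%, and 48% after quantile normalization, 36.8% after scaling and 65.1% with only genes above the array median on at least 2 arrays. That filter tested 13341 genes and called 6103, 2132 of them lower (members 1800). Testing every probe set called 14110, 8819 of them lower. Against E6.5 tissue alone 5896 were called, 3115 lower (members 2823), and at least 2-fold were 2772. Leaving out 1 array at a time gave 7818 to 9584 called genes. With the replicate block 9161 genes were called, and the replicate numbers do not pair samples: 15 correlations of same-numbered deviations ran from -0.26 to 0.06.

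Directions of named genes turned in these cases; Lars was not called in the reported fit. After scaling to 1 interquartile range the differences were -0.283 for H1f5, -0.14 for Hmgcs1, -0.72 for Lars, -0.13 for Mt2, -0.065 for Sall4, -0.083 for Uhrf1 and -0.22 for Utf1. Without ESC Klf4 was at -0.058. Against E5.75 tissue alone Fst was at 0.35 and Mixl1 at 0.22. The cause was not tested. The log2 signals give no depth, and the number of arrays limits the precision, while dim genes carry little information on change.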

Other observations

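Imprinted genes were found on both sides. Of 23 measured, 6 were called higher in all 4 cultured groups and 4 lower, beside 16.0% and 22.5% over autosomal genes. Their median difference was 0.19, beside -0.14 over all genes. Peg10, a retrotransposon-derived placental gene, had 7.12, 8.02 and 9.92 in culture against 5.06, 5.22, 5.99 and 5.49 in tissue, a difference of 2.89 ± 0.39 (limma, adjusted p = 0.000184). Phlda2, expressed from the maternal copy, was higher by 2.39 on the log2 scale. Nnat, a brain-enriched proteolipid gene, had 3.47, 4.79 and 9.58 in culture and 9.70, 8.66, 8.71 and 9.23 in tissue, a difference of -3.78 ± 0.40 (adjusted p = 3.7e-05). Nnat was far below tissue in 3 groups and near it in rsEpiSC E6.5, at -0.76, but its other probe set was called in the opposite direction, at 1.42 ± 0.33.

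Of 17 germline genes, 2 were called lower in all 4 cultured groups and 0 higher, beside 22.5% and 16.0% over autosomal genes. When ESC was left out, 9 were called lower in the mean and in all 3 groups. The germ cell helicase gene Ddx4 had 2.95, 3.28 and 5.24 in culture and 5.81, 6.02, 6.07 and 6.34 in tissue, a difference of -2.34 ± 0.16 (adjusted p = 2.18e-06), and the synaptonemal gene Sycp1 differed by -1.51 ± 0.22. Rpl10l, a testis-type ribosomal protein gene, was at 0.16 in ESC and at -4.85, -5.37 and -5.76 in EpiSC, rsEpiSC E5.75 and rsEpiSC E6.5. Among 10 DNA methylation genes, Hells, a remodeller that aids methylation, was lower by 1.36 on the log2 scale and Uhrf1, which reads newly copied DNA, was higher by 0.89, or at -0.08 after scaling to 1 interquartile range. Of 10 histone genes, 2 were called higher and 0 lower, beside 16.0% and 22.5% over autosomal genes, with a median of -0.004. Those higher were H1f2 at 2.72 ± 0.22 and H1f5 at 1.14 ± 0.31, while H1f5 was at -0.28 after that scaling.

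Beside 16.0% called higher and 22.5% called lower over autosomal genes, of 16 Wnt/beta-catenin targets 2 were called higher and 0 lower, of 14 FGF/ERK targets 3 and 1, of 16 Activin/Nodal genes 4 and 2, and of 10 BMP targets 0 and 0. Dusp6, the ERK phosphatase that reports ERK activity, had 6.35, 10.14 and 10.55 in culture and 11.41, 11.07, 11.34 and 11.25 in tissue, a difference of -1.67 ± 0.36 (adjusted p = 0.00371), lowest in ESC at -3.55, while a dimmer probe set was at 0.14 ± 0.23. Of 19 hypoxia response genes 7 were higher and 4 lower: Ndrg1 at 2.44 ± 0.23, and the carbonic anhydrase gene Car4 at -3.81 ± 0.23. Of 20 interferon and MHC class I genes 6 were higher and 4 lower, with B2m, the light chain of MHC class I, at 2.38 ± 0.23. Among 65 ribosomal protein genes, a group named after values were seen, 36 were called higher and 7 lower, with a median of 0.39. Of 13 blood markers 1 was called higher and 1 lower, of 12 decidua markers 2 and 3, and of 15 neural ectoderm genes 1 and 0.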
